A study of Homo sapiens with 8 samples.

Results

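The genes studied here encode the subunits and activators of the proteasome, the protease that degrades most ubiquitin-tagged proteins of a cell. They were taken as every row of the deposited count table whose symbol begins PSMA, PSMB, PSMC, PSMD, PSME or PSMF and ends in a number, which gave 44 of 32803 symbols. Of these, 5 (PSMB8, PSMB9, PSMB10, PSME1 and PSME2) belong to the immunoproteasome and were set against the other 39. RNA was sequenced from human UWB1.289 ovarian carcinoma cells, which lack functional BRCA1, and from UWB1.289+BRCA1, its counterpart in which BRCA1 was restored. Each was compared with a derivative resistant to PARP inhibitors, Olres-UWB1.289 or Olres-UWB1.289+BRCA1, and all 4 groups grew in medium without drug. The BRCA1-deficient parental cells were at passage 29 and their resistant derivative at passage 56. The BRCA1-proficient parental cells were at passage 10 and their resistant derivative at passage 45. Passage and resistance therefore cannot be told apart in either background, nor can BRCA1 state and passage between backgrounds. Each line is a single line with 2 libraries, and whether the resistant lines are clones is not given in the sources used here.

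The proteasome core is a barrel of stacked rings: outer alpha rings, encoded by PSMA genes, that gate entry, and inner beta rings, encoded by PSMB genes, that cut. Only the beta subunits of PSMB5, PSMB6 and PSMB7 carry active sites in the constitutive form. Interferon-gamma induces PSMB8, PSMB9 and PSMB10, which take the places of PSMB5, PSMB6 and PSMB7, and induces PSME1 and PSME2, which form the PA28 activator. The resulting immunoproteasome is known for making peptides suited to MHC class I presentation. The regulatory particle that caps the core is built of PSMC ATPases, which unfold substrates, and PSMD subunits, which bind and remove ubiquitin.

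Library totals ran from 24094821 to 34394107 counts. BRCA1 itself had 35.6 ± 0.659 (SD, n = 2) CPM in parental and 34.7 ± 0.0977 CPM in resistant deficient cells, against 202 ± 14.4 CPM in parental and 2270 ± 134 CPM in resistant proficient cells. CPM, the unit of levels here, is a count scaled to the library total after TMM normalization. The 8 ovarian carcinoma markers summed to between 3140 and 6639 CPM per library. The sum of 8 leukocyte markers lay between 18.6 and 29.9 CPM, with MS4A1 at 0 throughout. Single leukocyte markers differed by group. CD14 averaged 21.3 CPM in the resistant proficient line and at most 2.47 CPM in any other. CD68 was higher in the deficient lines (parental 14.25, resistant 16.17 CPM) than in the proficient ones (parental 2.77, resistant 1.18 CPM). PTPRC means ran from 4.07 CPM (resistant deficient) to 12.84 CPM (parental proficient). The source of these reads was not tested. Replicates in the resistant deficient group differed most, with a chi-square per degree of freedom of 23.4 against 4.26 to 8.87 elsewhere. The labels do not say whether a replicate is a culture of its own. All p-values therefore rest on the spread between these libraries alone, which may be technical.

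Proteasome transcripts were most abundant in the parental deficient cells and least abundant in the parental proficient cells. The 44 genes together took 0.884% and 0.877% of all counts in the 2 parental deficient libraries. Their share was 0.743% and 0.77% in resistant deficient, 0.576% and 0.583% in parental proficient, and 0.634% and 0.622% in resistant proficient libraries. The libraries of the 4 groups did not overlap in this share. In bulk RNA, fewer expressing cells and less RNA per cell cannot be told apart.

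The roles did not all follow this order. The 7 genes of the constitutive beta ring summed to 1493 ± 24.8 CPM in parental deficient and 920 ± 23.8 CPM in parental proficient cells, while the 7 alpha ring genes summed to 1719 ± 12.2 and 1314 ± 38.9 CPM (SD, n = 2). The 5 immunoproteasome genes summed to 342 ± 7.15 CPM in parental deficient cells and to 186 ± 3.12, 223 ± 2.94 and 188 ± 7.48 CPM in resistant deficient, parental proficient and resistant proficient cells. The 3 chaperones that assemble the base of the regulatory particle (PSMD5, PSMD9 and PSMD10) instead had their highest sum in resistant proficient cells, 230 ± 0.981 CPM. Their lowest sum was 150 ± 2.47 CPM, in resistant deficient cells. Of the 3, PSMD10 alone had this order, with means of 90.9 and 38.7 CPM. PSMD5 had its highest mean in parental proficient cells (103 CPM) and PSMD9 in resistant deficient cells (46.6 CPM). The sum of PSME3, PSME4 and PSMF1 was higher in both parental lines (644 ± 0.645 and 657 ± 19.1 CPM) than in both resistant lines (566 ± 13.1 and 569 ± 12.7 CPM). In proficient cells the mean of PSME4 went from 357 CPM in the parental to 250 CPM in the resistant line. That of PSME3 went the other way, from 219 to 241 CPM.

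**Figure D1:**
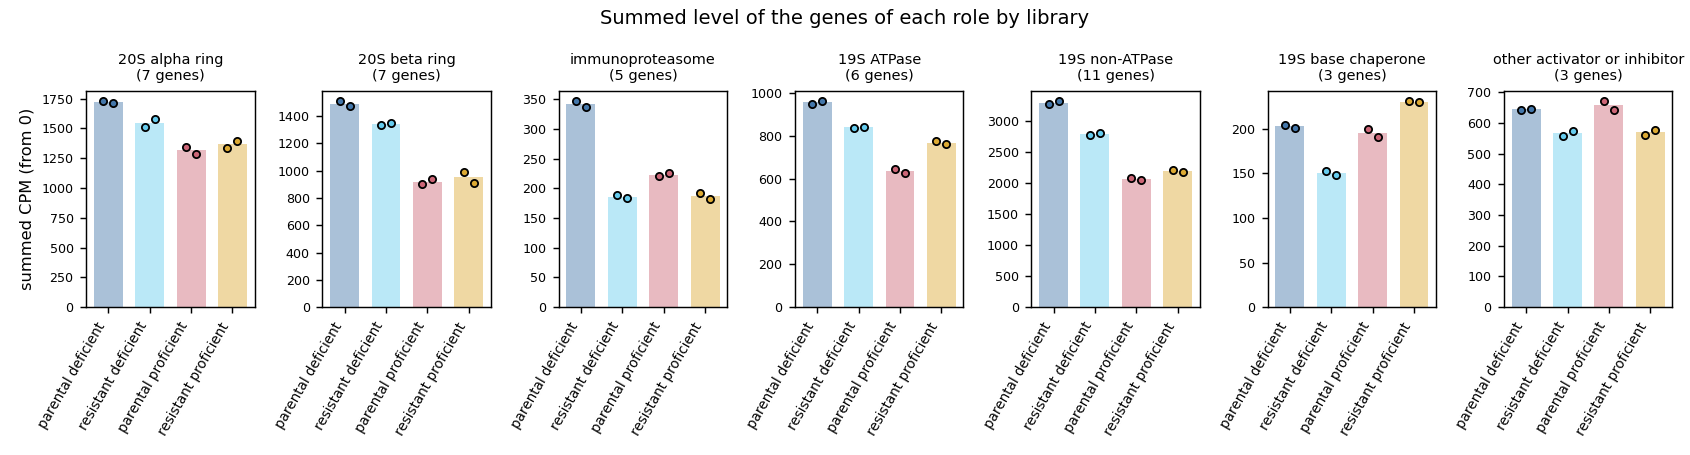
Summed CPM (linear axes from 0, scaled separately) of the genes of each role; bars are means of 2 libraries and points are single libraries. The immunoproteasome sum is highest in parental deficient cells, at 342 CPM, and the base chaperone sum in resistant proficient cells, at 230 CPM.

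Levels per kilobase of transcript were compared between genes with the lengths of principal GENCODE transcripts. PSMD2, the scaffold subunit that docks ubiquitin shuttle proteins, stood first in parental deficient cells at 394 CPM per kilobase and fell to 147 CPM per kilobase in parental proficient cells. PSMA7, an alpha ring subunit, had 355 CPM per kilobase in parental deficient and 490 in resistant deficient cells, against 150 in parental proficient and 151.5 in resistant proficient cells. In all 4 groups the 3 catalytic immunoproteasome genes ranked from 37 to 42 among the 44 genes, with PSMB8 above PSMB10 and PSMB10 above PSMB9. PSME1 and PSME2 were of the order of the constitutive subunits, at 144 and 115 CPM per kilobase in parental deficient cells.

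The tissue-restricted core genes were not detected at this depth. PSMA8, the alpha subunit of spermatogenic cells, had 0 counts in all 8 libraries, which allows between 0.086 and 0.125 CPM per library (3 counts, counting error only). PSMB11, the thymic beta subunit, had 2 counts in 1 parental deficient library, 1 in 1 resistant proficient library and 0 in the other 6 libraries. Both failed the filter on low counts, and 42 genes were tested. A gene is said below to rise or fall when its edgeR quasi-likelihood p, adjusted by Benjamini-Hochberg over all 16221 genes tested, was under 0.05. Errors of log2 fold changes are SEs, back-computed as the absolute log2 fold change over the square root of the test's F statistic.

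The 5 immunoproteasome genes did not move as a block. Their start regions are shown because interferon-responsive genes commonly carry an interferon-stimulated response element (ISRE), whose core was searched as GAAANNGAA on both strands of the 300 bases around each RefSeq start (GRCh38.p14, 250 bases upstream). Capitals mark the matches, and each run is written 5′ to 3′ on the strand of the gene.
PSMB8 (chr6:32844032-32844061, minus strand): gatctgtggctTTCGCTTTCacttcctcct
PSMB10 (chr16:67936853-67936882, minus strand): agggtaaaggcGAAAGCGAAagcaggaagt
PSME1 (chr14:24136189-24136218, plus strand): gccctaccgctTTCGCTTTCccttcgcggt
PSME2 (chr14:24146620-24146649, minus strand): acctggggagtGAAAGCGAAagcccgggcg
TAP1 (chr6:32853816-32853845, minus strand): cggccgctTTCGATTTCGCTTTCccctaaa

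The core was present at 4 of the 5 immunoproteasome genes, at positions -3 to 5 of PSMB8 (1 of its 2 starts in the table), -21 to -13 of PSMB10, 6 to 14 of PSME1 and -28 to -20 of PSME2, counted from 0 at the start. PSMB9 had no match in its own window. Its start lies 488 bases from that of TAP1, the peptide transporter gene, on the opposite strand, and the TAP1 window held 2 overlapping matches. Of the 34 other members found in the table, 3 (PSMA4, PSMB4 and PSMC2) had a match. PSMA7, PSMB1, PSMB6, PSMB7 and PSMD4 were not matched to it. Across 35116 promoters of that length, 8.11% held the core. The gamma-activated site TTCNNNGAA was in 7.66% of all promoters and at 8 of the 39 members in the table, of which PSMB8 was the sole immunoproteasome gene. The antioxidant response element TGACNNNGC was in 13.3% of all promoters and at 13 of the 39 members, and the CCAAT box was in 34.6% and at 19. The shares count every start, whereas a member counts if any of its starts had a match, so the units are unlike. These matches are descriptions of letters, not of bound sites.

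PSMB8, the immuno-form of the chymotrypsin-like site, fell with resistance in both backgrounds. It had 31.6 and 30.5 CPM in parental deficient, 19.4 and 21.5 CPM in resistant deficient, 18.8 and 18.1 CPM in parental proficient, and 7.25 and 6.24 CPM in resistant proficient libraries. No library of a resistant line reached its parental level. The log2 fold change with resistance was -0.60 ± 0.12 in deficient cells (adjusted p = 0.00118) and -1.45 ± 0.13 in proficient cells (adjusted p = 3.24e-06), by edgeR's quasi-likelihood test with Benjamini-Hochberg adjustment. PSMB8 overlaps the antisense gene PSMB8-AS1, and the strand setting of the counting is not given in the sources used here, so reads of the pair cannot be told apart.

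PSMB9, the immuno-form of the caspase-like site, was nearly lost from resistant proficient cells. Its counts were 59 and 53 in parental deficient, 46 and 45 in resistant deficient, 13 and 21 in parental proficient, and 3 and 0 in resistant proficient libraries. The ratio of parental to resistant proficient cells was 11.1 (exact 95% interval 3.51 to 56.7, counting error only), from 34 against 3 counts. The fitted log2 fold change was -3.38 ± 0.74 (edgeR adjusted p = 0.00254). It ran from -7.20 without replicate 1 of the resistant proficient cells to -2.51 without replicate 2. In deficient cells it was -0.23 ± 0.37 (edgeR adjusted p = 0.631), with overlapping libraries.

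PSMB10, the immuno-form of the trypsin-like site, went the other way in deficient cells. It had 2.93 and 3.44 CPM in parental deficient and 18.5 and 9.95 CPM in resistant deficient libraries, and 1.13, 1.62, 1.15 and 1.25 CPM in the 4 proficient libraries. Both resistant deficient libraries exceeded every other library, and they differed from each other by more than the libraries of any other group. The log2 fold change was 2.15 ± 0.29 (edgeR adjusted p = 9.79e-05), and 1.48 (edgeR adjusted p = 5.67e-06) with the trend of fold change on GC content removed. PSMB10 lies at the 86.2nd percentile of GC content among tested genes. In proficient cells the change was -0.22 ± 0.38 (edgeR adjusted p = 0.657).

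The PA28 activator genes fell together in deficient cells. PSME1 had 148 and 142 CPM in parental and 84.9 and 85 CPM in resistant deficient libraries, and PSME2 had 162 and 160 CPM against 63.8 and 66.1 CPM. The log2 fold changes were -0.77 ± 0.06 for PSME1 (edgeR adjusted p = 3.12e-06) and -1.31 ± 0.08 for PSME2 (edgeR adjusted p = 3.23e-07). PSME2 therefore went from 111 ± 2.2 to 76.4 ± 1.85 reads per 100 reads of PSME1 (SD, n = 2), a ratio chosen after values were seen. In proficient cells PSME1 had 109.8 and 113 CPM in parental and 97.9 and 99.4 CPM in resistant libraries, a log2 change of -0.18 ± 0.06 (edgeR adjusted p = 0.0354) that passed the threshold in 2 of 17 alternative analyses. PSME2 changed by -0.17 ± 0.08 there (edgeR adjusted p = 0.079).

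**Figure D2:**
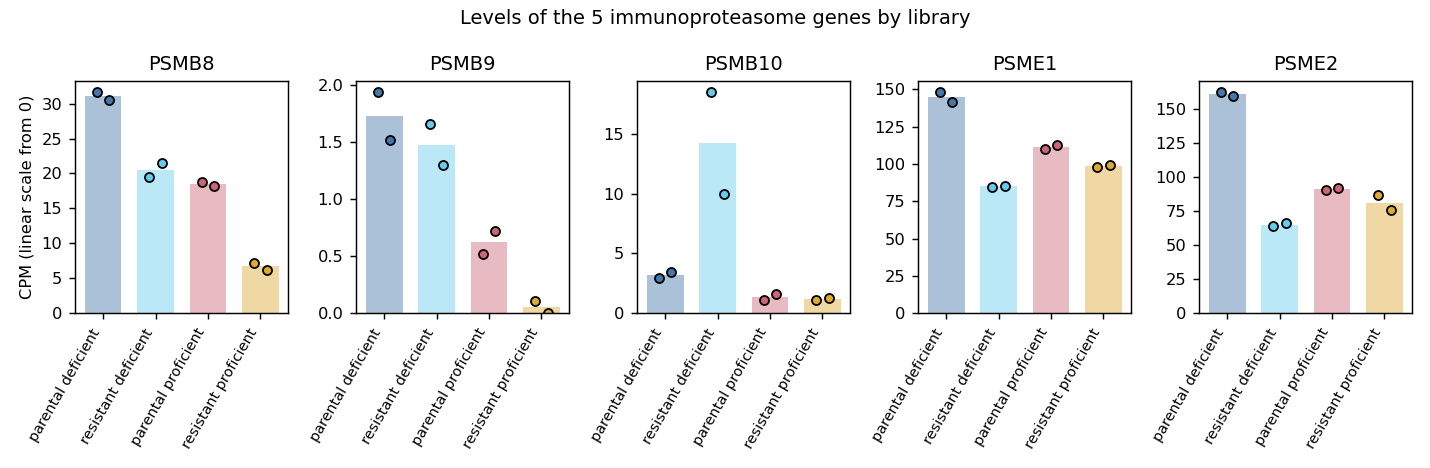
CPM (linear axes from 0, scaled separately) of the 5 immunoproteasome genes in each group; bars are means of 2 libraries and points are single libraries. PSMB10 is high in resistant deficient cells (18.5 and 9.95 CPM), and PSMB8 (7.25 and 6.24 CPM) and PSMB9 (3 and 0 counts) are low in resistant proficient cells.

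A ratio of each catalytic immunoproteasome gene to the gene it replaces does not depend on library scaling. PSMB8 had 13.6 ± 0.246 reads per 100 reads of PSMB5 in parental deficient, 15.4 ± 1.01 in resistant deficient, 19.8 ± 0.947 in parental proficient and 6.85 ± 0.0354 in resistant proficient cells (SD, n = 2). PSMB8 fell in resistant deficient cells without a lower ratio, since PSMB5 was lower there too. PSMB9 had 0.921 ± 0.166, 0.659 ± 0.104, 0.639 ± 0.0731 and 0.043 ± 0.0608 reads per 100 reads of PSMB6 in the same order of groups. PSMB10 had 2.34 ± 0.213, 12 ± 5.65, 1.36 ± 0.382 and 1.05 ± 0.035 reads per 100 reads of PSMB7. These genes differ in GC content (60.6% for PSMB10 and 48.7% for PSMB7), and no ratio was corrected for the GC trend. A two-sided exact permutation test of 2 against 2 libraries cannot go below 0.33, so the ratios are given as a description.

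**Figure D3:**
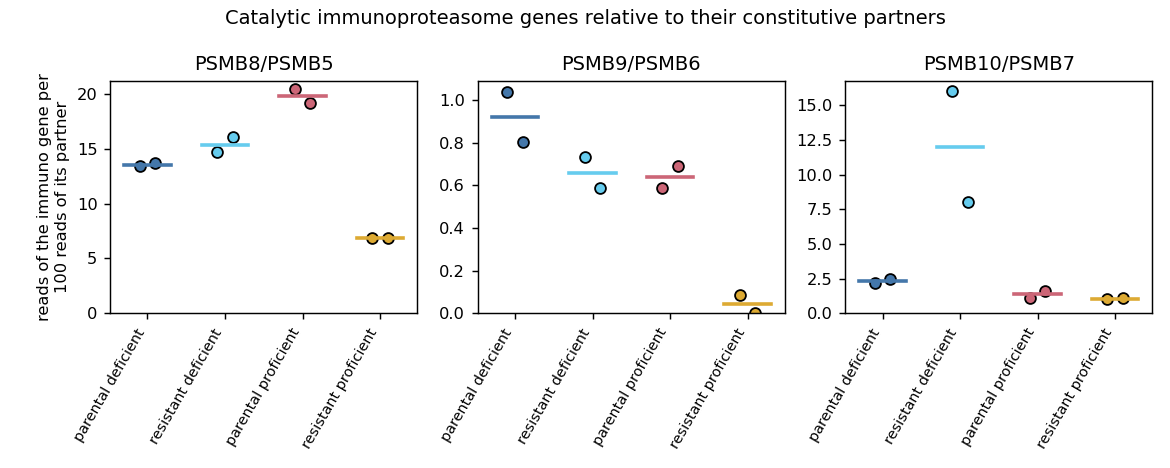
Reads of PSMB8, PSMB9 and PSMB10 per 100 reads of PSMB5, PSMB6 and PSMB7 (linear axes from 0, scaled separately); points are libraries and lines are group means. In resistant proficient cells PSMB8 has 6.85 and PSMB9 0.043 reads per 100, while PSMB10 has 12 per 100 in resistant deficient cells.

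In the BRCA1-deficient background, 20 of the 37 tested genes outside the immunoproteasome fell with resistance and 4 rose. With the trend of fold change on GC content removed, 18 fell and 7 rose, while 4276 of 15378 genes tested fell and 4918 rose. Of all 42 genes tested, 5 rose and 23 fell, while 28.9% of all genes tested rose and 27% fell. The 37 genes had a median log2 fold change of -0.21, against 0.03 over all genes. Those that fell furthest were PSMD10, PSMA6, PSMB5, PSMA5 and PSMC1.

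PSMB5, the constitutive chymotrypsin-like subunit, had 236 and 222 CPM in parental and 132.5 and 133 CPM in resistant deficient libraries, a log2 fold change of -0.79 ± 0.08 (edgeR adjusted p = 1.30e-05). Changes of the other catalytic genes were smaller: PSMB7 fell by 0.18 on the log2 scale (edgeR adjusted p = 0.0396) and PSMB6 rose by 0.25 (edgeR adjusted p = 0.0483), calls that held in 10 and 8 of 17 alternative analyses. The alpha ring had 5 genes that fell and 1, PSMA7, that rose. PSMA6 had 253 and 255 CPM in parental and 126 and 146 CPM in resistant deficient libraries, whereas PSMA7 had 362 and 344.5 CPM against 507 and 469 CPM. Their log2 fold changes were -0.90 ± 0.08 and 0.47 ± 0.07 (edgeR adjusted p = 4.36e-06 and 0.000146), so genes of the same ring moved in opposite directions.

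PSMD10 (gankyrin), a chaperone of the regulatory particle's base, had 76.1 and 77.2 CPM in parental and 37.8 and 39.6 CPM in resistant deficient libraries. This was a log2 fold change of -0.98 ± 0.07 (edgeR adjusted p = 1.39e-06). It overlaps ATG4A, so part of its count may belong to that gene. Of the 6 ATPase genes 3 fell, among them PSMC1 at -0.61 ± 0.11 (edgeR adjusted p = 0.000711), and 1 rose, PSMC5 at 0.26 ± 0.06 (edgeR adjusted p = 0.00289). Of the 11 other regulatory particle subunits 5 fell, and the highest change was that of PSMD3, at 0.22 ± 0.10 (edgeR adjusted p = 0.078). PSMB3 rose by 0.32 ± 0.07 (edgeR adjusted p = 0.0037).

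Fold change followed GC content in this comparison, with a Spearman correlation of 0.464 over 15378 genes and of 0.382 over the 42 proteasome genes, which share their libraries. With that trend removed 8 proteasome genes rose and 21 fell, against 4918 and 4276 of the 15378 genes. The median of the 37 genes was then -0.11, against 0.04 over all genes. Without replicate 2 of the parental deficient cells 2 genes rose. With the GC trend removed, 6 of the falls did not pass the threshold, those of PSMA3 (0.04), PSMA4 (0.08), PSMB7 (-0.01), PSMD11 (-0.10), PSMD14 (-0.04) and PSME4 (0.02), nor did the rise of PSMB6 (0.10). PSMA2 (0.34), PSMD12 (0.23), PSMD7 (0.16) and PSMB2 (0.12) then rose, and PSMC3, PSMC4, PSMD4 and PSMD8 then fell. The 5 fibroblast markers summed to 48.7 to 58 CPM in parental and 4.39 to 9.76 CPM in resistant deficient libraries, mostly COL1A2 in the former, with DCN and LUM at 0 in all 4. Their part in the result was not tested.

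In the BRCA1-proficient background the constitutive genes leaned the other way. With resistance 16 of the 42 genes rose and 9 fell, while 25.9% of all genes tested rose and 27.8% fell. The 37 genes outside the immunoproteasome had a median log2 fold change of 0.14, against -0.00 over all genes.

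The regulatory particle held most of the rises, with 8 of 11 non-ATPase subunits and 3 of 6 ATPases. PSMC5, an ATPase, had 105 and 105 CPM in parental and 191 and 185 CPM in resistant proficient libraries, a log2 fold change of 0.84 ± 0.06 (edgeR adjusted p = 5.86e-07). PSMC5 overlaps FTSJ3, whose reads may be mixed with it. PSMD10 rose by 0.61 ± 0.07 and PSMD3 by 0.60 ± 0.10 (edgeR adjusted p = 2.60e-05 and 0.000449). In the core, PSMB3 rose by 0.65 ± 0.08 (edgeR adjusted p = 3.13e-05) and PSMA2 by 0.57 ± 0.07 (edgeR adjusted p = 5.29e-05).

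The deubiquitinase of the lid and its partner did not share this direction. PSMD14, the deubiquitinase, had 461 and 435 CPM in parental and 309 and 338 CPM in resistant proficient libraries, and PSMD7, its dimer partner, had 210.5 and 203 CPM against 139 and 139 CPM. Their log2 fold changes were -0.47 ± 0.07 and -0.58 ± 0.06 (edgeR adjusted p = 0.000126 and 1.95e-05). PSME4, the gene of the PA200 activator, fell by 0.52 (edgeR adjusted p = 2.97e-05), PSMB2 by 0.48 (edgeR adjusted p = 3.90e-05) and PSMC6 by 0.29 (edgeR adjusted p = 0.0114). PSMB5, PSMB6 and PSMB7 had log2 fold changes of 0.08 ± 0.08, 0.18 ± 0.10 and 0.16 ± 0.07, none past the threshold (edgeR adjusted p = 0.421, 0.167 and 0.0616). The correlation with GC content was 0.088 over all genes and 0.14 over the 42. With that trend removed 19 of the 42 rose and 12 fell, against 4563 and 5212 of 15378 genes tested.

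Between the parental lines, the BRCA1-proficient cells had lower levels of nearly the whole complex. Of 42 genes 33 were lower and 2 higher than in deficient cells, while 32.3% of all genes tested were higher and 30.1% lower. The median of the 37 genes outside the immunoproteasome was -0.45, against 0.00 over all genes. All 7 constitutive beta ring genes and all 5 immunoproteasome genes were lower.

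PSMD2 had 1352 and 1368 CPM in parental deficient and 498 and 517 CPM in parental proficient libraries, a log2 fold change of -1.42 ± 0.06 (edgeR adjusted p = 1.90e-08). PSMB5 had 91.8 and 94.7 CPM in parental proficient libraries, a log2 fold change of -1.30 ± 0.08 against deficient cells (edgeR adjusted p = 1.98e-07). PSMA7, with 147 and 152 CPM there, differed by -1.24 ± 0.07 (edgeR adjusted p = 7.99e-08). The lid subunits PSMD13 and PSMD3 followed, at -1.19 ± 0.07 and -1.15 ± 0.10 (edgeR adjusted p = 9.85e-08 and 2.78e-06). PSMB6 and PSMB7 differed by -0.95 ± 0.10 and -0.42 ± 0.07 (edgeR adjusted p = 1.09e-05 and 0.00023).

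PSME4 was an exception, with 224 and 233 CPM in parental deficient and 364 and 351 CPM in parental proficient libraries (log2 fold change 0.65 ± 0.06, edgeR adjusted p = 4.43e-06). The other was PSMD5, a base chaperone, at 0.30 ± 0.08 (edgeR adjusted p = 0.00825), a call lost with the GC trend removed (0.08, edgeR adjusted p = 0.201). Among the immunoproteasome genes PSMB9 differed by -1.45 ± 0.42, PSMB10 by -1.20 ± 0.33, PSME2 by -0.82 ± 0.08, PSMB8 by -0.75 ± 0.12 and PSME1 by -0.38 ± 0.06. Their edgeR adjusted p-values were 0.0107, 0.00847, 3.72e-06, 0.000203 and 0.000291. The PSMB10 call was lost with the GC trend removed (-0.57, edgeR adjusted p = 0.0744), and the PSMB9 call was lost without replicate 1 of either group (edgeR adjusted p up to 0.0721).

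The Spearman correlation of fold change with GC content was -0.435 over 15378 genes and -0.675 over the 42 genes, which share their libraries. With the trend removed 1 gene was higher and 35 lower, against 5136 and 4740 of the 15378 genes. The median of the 37 genes was then -0.57, against 0.01 over all genes. Low levels in the proficient parental line were thus also present after that correction. Other markers moved with this comparison: the ovarian carcinoma markers summed to 6434 to 6639 CPM in parental deficient and 3139 to 3412 CPM in parental proficient libraries. Most of this was KRT8 (means of 2715 and 936 CPM) and KRT18 (2384 and 1136 CPM), with KRT19 and MUC16 lower too. EPCAM (746 and 751 CPM) and PAX8 (218 and 209 CPM) hardly differed, CDH1 was higher (55.5 and 88.1 CPM), and WT1 was near 0 in both. The 3 endothelial markers summed to 38.6 to 41.1 CPM and 2.49 to 3.99 CPM in these libraries, nearly all of it CDH5 in the deficient libraries, with PECAM1 and VWF at or under 3.01 CPM. Their part in the proteasome differences was not tested.

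Between the resistant lines genes differed in both directions. Of 42 genes 13 were higher and 21 lower in proficient cells, while 36.3% of all genes tested were higher and 37.5% lower. The median of the 37 genes was -0.14, against -0.02 over all genes. The Spearman correlation of fold change with GC content was -0.512 over all genes and -0.639 over the 42. With that trend removed 6 were higher and 32 lower, against 5218 and 6122 of 15378 genes tested. The median of the 37 genes was then -0.29, against -0.08 over all genes. This comparison shares its libraries with both resistance comparisons. The endothelial markers summed to 41.7 to 45.3 CPM in resistant deficient and 4.49 to 4.68 CPM in resistant proficient libraries, and the fibroblast markers to 4.39 to 9.76 CPM against 29.8 to 30.7 CPM. The higher sums were mostly CDH5 and COL1A2, while COL1A1 went the other way, with means of 6.04 and 1.68 CPM. Their part in the proteasome differences was not tested.

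PSMA7 had 156 and 146 CPM in resistant proficient libraries against 507 and 469 CPM in resistant deficient ones, a log2 fold change of -1.69 ± 0.07 (edgeR adjusted p = 3.23e-09). PSMB6 differed by -1.03 ± 0.10 and PSMB2, PSMD3 and PSMD13 by -0.77 each (edgeR adjusted p = 3.14e-06, 3.95e-07, 3.01e-05 and 1.08e-06). PSMB5 differed by -0.43 ± 0.08 (edgeR adjusted p = 0.00045) and PSMB7 by -0.08 ± 0.07 (edgeR adjusted p = 0.305). PSMD10 was higher, with 92.4 and 89.3 CPM against 37.8 and 39.6 CPM and a log2 fold change of 1.23 ± 0.07 (edgeR adjusted p = 5.98e-08). PSMA6 was higher by 0.79 ± 0.08 (edgeR adjusted p = 3.25e-06). PSMD5 was higher by 0.54 ± 0.08 and PSMD6 by 0.41 ± 0.08 (edgeR adjusted p = 0.00011 and 0.000688), calls lost with the GC trend removed, as were those of PSMC1 and PSMC4. With that trend removed 6 genes that were higher passed as lower, namely PSMA2 (0.34 to -0.29), PSMA3 (0.35 to -0.30), PSMC2 (0.25 to -0.26), PSMD1 (0.26 to -0.25), PSMD12 (0.42 to -0.24) and PSME4 (0.40 to -0.20), and PSMD8 passed as higher (-0.31 to 0.32).

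The catalytic and activator genes of the immunoproteasome differed in opposite directions in this comparison. The catalytic genes had unlike changes with resistance: PSMB10 rose by 2.15 in deficient cells, whereas PSMB8 fell in both backgrounds (-0.60 and -1.45). The 3 catalytic genes were lower in resistant proficient cells: PSMB10 by -3.57 ± 0.33, PSMB8 by -1.60 ± 0.13 and PSMB9 by a fitted -4.60 ± 0.65 on the log2 scale (edgeR adjusted p = 1.87e-06, 6.31e-07 and 6.08e-05). The PSMB10 value was -2.36 with the GC trend removed (edgeR adjusted p = 8.33e-08). The fitted PSMB9 value was -8.42 without replicate 1 and -3.74 without replicate 2 of the resistant proficient cells. PSMB9 had 91 counts in resistant deficient against 3 in resistant proficient libraries, a ratio of 25.7 (exact 95% interval 8.53 to 127, counting error only). Both activator genes were higher, PSME1 by 0.22 ± 0.06 and PSME2 by 0.32 ± 0.08 (edgeR adjusted p = 0.00922 and 0.0026).

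**Figure D4:**
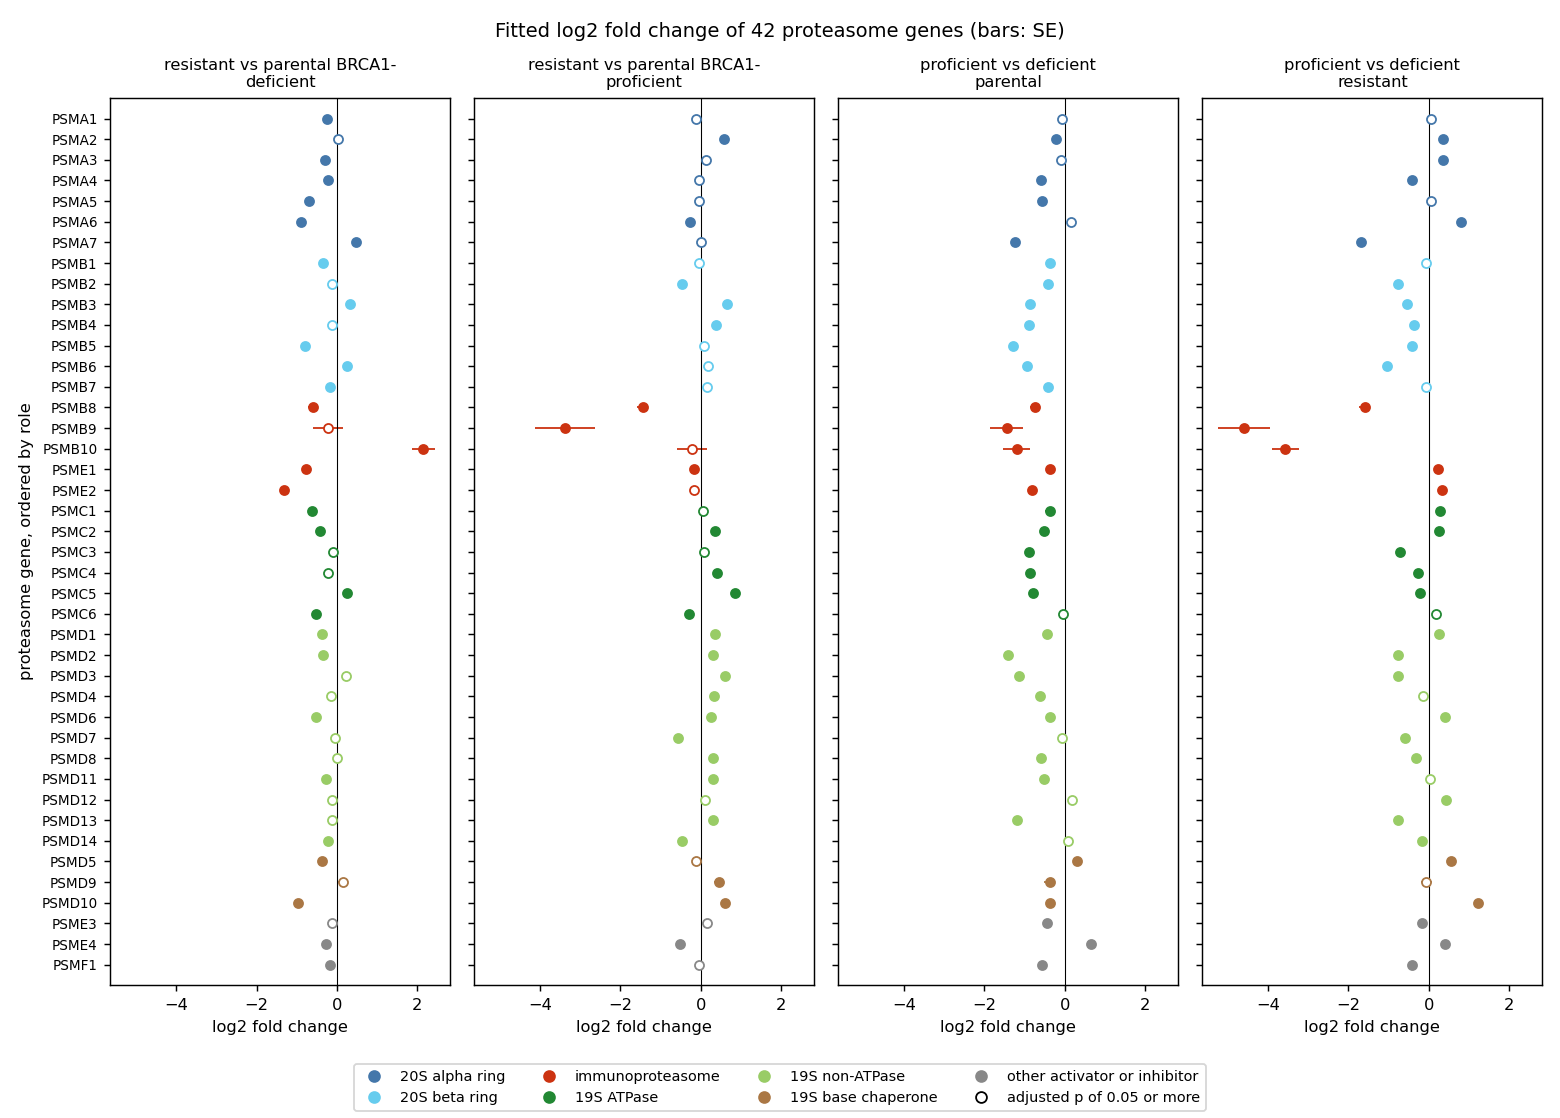
Fitted log2 fold change of the 42 tested genes, ordered by role, in the 4 pairwise comparisons; bars are SEs, filled points have an adjusted p under 0.05 and open points do not. Most genes lie left of 0 in the parental comparison (33 lower, 2 higher), and with resistance in proficient cells PSMB9 (-3.38) and PSMB8 (-1.45) lie furthest left.

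The effect of resistance differed between backgrounds for 31 of the 42 genes. Of these, 24 changed more upward in proficient than in deficient cells and 7 more downward, while the same test called 21.4% of all genes upward and 25.3% downward. The median difference of the 37 genes was 0.34, against -0.08 over all genes. PSMD10 had the largest difference among the upward ones, 1.60 ± 0.10 (edgeR adjusted p = 5.64e-07), followed by PSME2 at 1.14 ± 0.11 and PSMB5 at 0.87 ± 0.11 (edgeR adjusted p = 1.06e-05 and 0.0001).

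In both backgrounds 14 genes passed the threshold, 8 in the same direction and 6 in opposite directions. Among the 8, the falls of PSMD14 and PSME4 in deficient cells were lost with the GC trend removed (-0.04 and 0.02). The PSME1 call in proficient cells held in 2 of 17 alternative analyses. The 6 were PSMC2, PSMD1, PSMD2, PSMD6, PSMD10 and PSMD11, all of the regulatory particle or its assembly, and each fell in deficient and rose in proficient cells, although the fall of PSMD11 was lost with the GC trend removed (-0.10, edgeR adjusted p = 0.0677). PSMD2, for example, went from 1352 and 1368 to 1068 and 1070 CPM in deficient cells and from 498 and 517 to 662 and 599 CPM in proficient cells. Over all genes tested, 815 fell in deficient and rose in proficient cells and 694 had the reverse pattern. Of all genes 9.3% passed in both with opposite directions and 23.3% with the same, against 14.3% and 19% of the 42. Across the 42 genes the Spearman correlation of both effects was 0.30, and 0.27 over all 16221 genes, as a description of libraries that the comparisons do not share.

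The 3 catalytic immunoproteasome genes differed downward: PSMB9 by -3.15 ± 0.86, PSMB10 by -2.37 ± 0.47 and PSMB8 by -0.85 ± 0.17 (edgeR adjusted p = 0.0111, 0.00193 and 0.00215). PSME1 differed upward by 0.59 ± 0.09 (edgeR adjusted p = 0.000281). Of the constitutive partners PSMB7 differed by 0.34 ± 0.09 (edgeR adjusted p = 0.0123) and PSMB6 by -0.08 ± 0.14 (edgeR adjusted p = 0.688). The remaining downward genes were PSMD7 at -0.53 ± 0.09, PSMA7 at -0.45 ± 0.09, PSMB2 at -0.35 ± 0.08 and PSME4 at -0.24 ± 0.09 (edgeR adjusted p = 0.00069, 0.00245, 0.00461 and 0.0361). The call of PSME4 held in 4 of 16 alternative analyses.

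**Figure D5:**
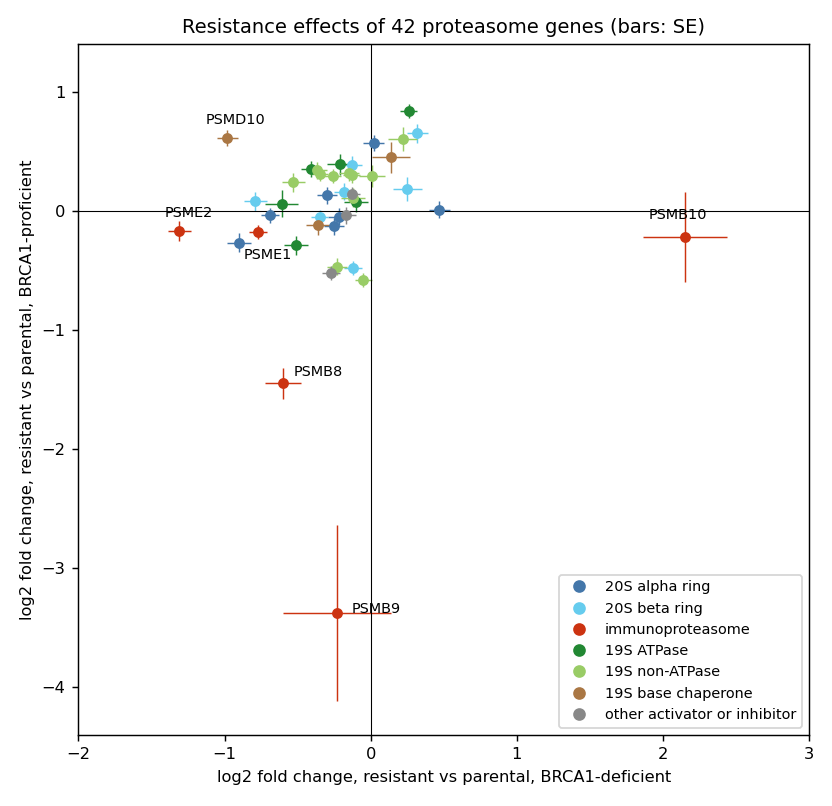
Log2 fold change with resistance in BRCA1-deficient (x axis) and BRCA1-proficient cells (y axis) for the 42 tested genes; bars are SEs and colours give the role. PSMB10 lies far right (2.15), PSMB9 and PSMB8 lie low (-3.38 and -1.45), and PSMD10 lies at upper left (-0.98 and 0.61).

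Genes of interferon-gamma signalling, which controls the immunoproteasome genes, moved differently in both backgrounds. In deficient cells 6 of 11 fell with resistance and 1 rose, with a median of -0.44 against 0.03 over all genes, of which 27% fell and 28.9% rose. IRF9 and STAT2, partners in type I interferon signalling, changed by -2.06 ± 0.11 and -0.71 ± 0.07 (edgeR adjusted p = 2.12e-07 and 1.40e-05). In proficient cells 3 fell and 2 rose, with a median of 0.20, while 27.8% of all genes fell and 25.9% rose. IRF1, the factor known to act at PSMB8, PSMB9 and PSMB10, had 32.7 and 33.4 CPM in parental and 6.45 and 6.53 CPM in resistant proficient libraries (log2 fold change -2.35 ± 0.12, edgeR adjusted p = 6.40e-08). IRF1 in deficient cells went from 10.7 and 11.1 to 13.5 and 13.8 CPM (0.32 ± 0.12, edgeR adjusted p = 0.0362). In the parental comparison 5 of the 11 were higher and 3 lower in proficient cells (32.3% and 30.1% of all genes). IRF1 was among the higher ones, at 1.60 ± 0.12, and all 5 immunoproteasome genes were lower there. A part of IRF1 or the other listed genes in the immunoproteasome levels was not tested.

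Of 15 genes of MHC class I peptide supply and loading, 5 rose and 6 fell with resistance in deficient cells, and 5 rose and 3 fell in proficient cells, with medians of 0.11 and 0.03. Of all genes 28.9% rose and 27% fell in deficient cells, and 25.9% rose and 27.8% fell in proficient cells. The transporter genes beside PSMB8 and PSMB9 fell in both backgrounds. TAP1 had 12.5 and 11.6 CPM in parental and 4.97 and 5.41 CPM in resistant deficient libraries, and 8.3 and 8.29 against 3.09 and 3.83 CPM in proficient ones. Its log2 fold changes were -1.21 ± 0.16 and -1.27 ± 0.17 (edgeR adjusted p = 0.000112 and 0.0001). TAP2 changed by -0.63 ± 0.10 and -1.51 ± 0.11 (edgeR adjusted p = 0.000326 and 6.01e-07). TAP1, across from PSMB9, thus fell in deficient cells where PSMB9 had no change past the threshold, and the 2 effects on TAP1 differed by -0.06 ± 0.24 (edgeR adjusted p = 0.866). HLA-C, a presenting molecule, rose by 0.58 ± 0.11 and 0.60 ± 0.12 (edgeR adjusted p = 0.00119 and 0.00112). B2M, its light chain, changed by -0.58 ± 0.07 in deficient cells (edgeR adjusted p = 4.31e-05).

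A list of 13 genes held factors that assemble or attend the proteasome. It also held ADRM1 and SEM1, which are regulatory particle subunits whose symbols fall outside the rule used here. Of the 13, 8 fell and 1, SEM1, rose with resistance in the proficient line, with a median of -0.43 (all genes: 27.8% fell and 25.9% rose). SEM1 had 126.5 and 120.5 CPM in parental and 187 and 203 CPM in resistant proficient libraries. ADRM1 had 70.8 and 64.6 CPM in parental and 210 and 118 CPM in resistant deficient libraries. In the deficient line 4 fell and 3 rose, with a median of -0.02 (all genes: 27% and 28.9%). The core assembly chaperones PSMG1 and POMP changed by -0.80 ± 0.09 and -0.60 ± 0.08 in proficient cells (edgeR adjusted p = 2.41e-05 and 5.21e-05), and UCHL5, a proteasome-bound deubiquitinase, by -0.67 ± 0.08 (edgeR adjusted p = 3.74e-05). In deficient cells UCHL5, PAAF1 and ECPAS, which binds the regulatory particle, changed by -0.51 ± 0.08, -0.55 ± 0.08 and -0.39 ± 0.07 (edgeR adjusted p = 0.000344, 0.000227 and 0.000526).

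Among 10 genes of subunit transcription and its control, 3 rose and 6 fell with resistance in proficient cells (median -0.60), and 3 rose and 2 fell in deficient cells (median 0.07). The shares of all genes that rose and fell were 25.9% and 27.8% in proficient and 28.9% and 27% in deficient cells. NFE2L1, the main activator of subunit genes, changed by 0.19 ± 0.07 in proficient and 0.00 ± 0.07 in deficient cells (edgeR adjusted p = 0.0297 and 0.999), a gene named after its values were seen. DDI2, the protease that activates its product, fell in the proficient line by 0.69 (edgeR adjusted p = 1.37e-05), MAFF, a small MAF partner, by 2.30 (edgeR adjusted p = 3.30e-07), while NFE2L3 rose by 0.98 ± 0.08 (edgeR adjusted p = 1.16e-06). In deficient cells KEAP1, which restrains NRF2, rose by 0.90 ± 0.13, MAFG by 0.62 ± 0.10, and NGLY1, which deglycosylates the NFE2L1 product, changed by -0.64 ± 0.09 (edgeR adjusted p = 0.000135, 0.000299 and 0.000133). The MAFG call was lost with the GC trend removed.

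Of 13 genes of ubiquitin activation and delivery, 7 rose and 1 fell in proficient cells (median 0.24), and 5 rose and 6 fell in deficient cells (median 0.17), against 25.9% and 27.8% of all genes in proficient and 28.9% and 27% in deficient cells. VCP, the segregase that extracts substrates for the proteasome, rose by 1.03 ± 0.06 with resistance in proficient cells (edgeR adjusted p = 1.96e-07) and changed by -0.24 ± 0.06 in deficient cells (edgeR adjusted p = 0.00671). The difference between backgrounds was 1.27 ± 0.09 (edgeR adjusted p = 1.11e-06), the same direction as for PSMD10. UFD1, a cofactor of VCP, rose by 0.53 ± 0.07 in proficient cells (edgeR adjusted p = 6.27e-05), and the shuttle gene RAD23B changed by -0.46 ± 0.07 there and by -0.41 ± 0.07 in deficient cells (edgeR adjusted p = 0.000149 and 0.00041). UBA1, the ubiquitin-activating enzyme, rose in deficient cells by 0.58 ± 0.09 (edgeR adjusted p = 0.000283).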

How the data were processed

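Total RNA from 8 libraries was sequenced, and 1 table of whole-number counts per gene symbol, deposited by the authors without normalisation, was used. Trimmomatic 0.39, featureCounts, DESeq2 1.24.0 and Subread 2.0.1 appear in the submitters' processing notes, with genome build GRCh37 and no roles. No source used here states the annotation, the strand setting or how multiply mapped reads were handled. Of the 44 genes, 19 overlap another gene and 20 have pseudogenes of their name in RefSeq, so reads may be shared. Another 14 rows that carry the symbols PSMB8 or PSMB9 with a number added held 0 counts and were not used.

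Groups came from the titles. Counts were tested with edgeR 4.0.16 in R 4.3.3 (quasi-likelihood test, TMM factors, filterByExpr, 4 groups in 1 fit, 4 residual degrees of freedom), and p-values were adjusted by Benjamini-Hochberg over 16221 genes. The procedure was tested on simulated counts. CPM values are relative to TMM-scaled totals. GC content and transcript length came from GENCODE release 29 (GC for 94.8% of genes tested and all 42 members tested), and the GC trend was a spline with 5 degrees of freedom. Alternatives were RLE factors, library totals, other filters, DESeq2 1.42.0, GC removal, a replicate block, the 2 groups alone and leaving out each library.

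The members and lists were chosen with earlier results of these data known. Named in every comparison were the 5 immunoproteasome genes and PSMB5, PSMB6 and PSMB7, with up to 5 other members per direction of largest change past the adjusted p of 0.05, members that failed the filter, and up to 3 genes per list with the smallest p. Some genes that this rule names are not reported here. No molecular tags were used, so intervals and floors reflect counting error alone.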

Additional observations from a re-analysis of the deposited data

Results flagged for a closer look

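The effect of resistance differed between the BRCA1 backgrounds for 31 of the 42 tested proteasome genes. This is the edgeR test of the difference itself (proficient minus deficient, log2), which called 21.4% of all genes tested upward and 25.3% downward. Of the 31, 11 are listed here because they are immunoproteasome genes or passed the threshold in opposite directions in the 2 backgrounds. Of the immunoproteasome genes, PSMB9 differed by -3.15, PSMB10 by -2.37, PSMB8 by -0.85, PSME1 by 0.59 and PSME2 by 1.14. The catalytic genes thus lie on one side of 0 and the activator genes on the other.

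Of the genes that fell in deficient and rose in proficient cells, PSMD10 differed by 1.60, PSMD6 by 0.78, PSMC2 by 0.76, PSMD1 by 0.71, PSMD2 by 0.66 and PSMD11 by 0.55. Each of these 11 differences kept its direction in all 16 alternative analyses with a test of the difference. The genes were listed because they passed that test, so alternatives run on the same libraries give no separate support. PSMB9 rests on 3 and 0 counts in the resistant proficient libraries, and its difference ran from -6.94 to -2.25.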

How the results depend on the processing

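Counting depth limits PSMB9, PSMB10 and TAP1, which are among the lowest genes named. Named genes were recomputed under up to 17 alternatives: 2530 values kept direction and side of the threshold, 64 lost the threshold, 19 passed it newly and 15 changed sign. Causes were not tested. Same-numbered libraries deviated together by r = 0.121 (resistance, deficient), -0.095 (resistance, proficient), -0.052 (parental) and 0.212 (resistant comparison). With 1 deviation per group these values cannot decide whether same-numbered libraries were paired. With the replicate block the counts that rose and fell were 5 and 23, and 16 and 8, for resistance in deficient and proficient cells, 2 and 33 and 13 and 21 for the parental and resistant comparisons, and 24 and 7 for the difference.

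Medians below are log2 fold changes of the 37 genes outside the immunoproteasome. With the GC trend removed, alone or with the replicate block, 8 genes rose in resistant deficient cells (median -0.11), 1 was higher in parental proficient cells (median -0.57), and in the resistant comparison 32 were lower (median -0.29) and 6 higher, or 7 with the block. With GC removal alone, 4918 of 15378 genes tested rose in the first and 5136 were higher in the second comparison. In the third, 6122 were lower and 5218 higher. The medians over all genes were 0.04, 0.01 and -0.08. Under library totals the medians were 0.19 (resistance, proficient), -0.53 (parental) and -0.16 (resistant comparison). With at least 1 CPM in 2 libraries they were -0.52 (parental) and 0.40 (difference). With the 2 groups alone the deficient resistance median was -0.24. Leaving out 1 library at a time gave 2 to 6 rising genes in resistant deficient cells, with 2 without parental deficient replicate 2, and 1 to 2 higher genes in the parental comparison. The medians then ran from -0.26 to -0.21 (resistance, deficient), 0.11 to 0.21 (resistance, proficient), -0.53 to -0.43 (parental), -0.14 to -0.08 (resistant comparison) and 0.37 to 0.47 (difference).

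With the GC trend removed 9, 4, 3 and 14 of the 42 members changed sign in the resistance comparisons of deficient and proficient cells, the parental and the resistant comparison, and 4 in the difference. Of those in the resistant comparison 7 passed the threshold both ways: PSMA2, PSMA3, PSMC2, PSMD1, PSMD12 and PSME4 went from higher to lower and PSMD8 from lower to higher. Among the genes chosen by the naming rule, without and with the replicate block, the sign changed for MAFG for resistance in deficient cells (-0.09 and -0.10) and, in the resistant comparison, MAFG (0.13 and 0.14), UBA1 (0.08 and 0.08), PSMD12 (-0.24 and -0.24) and PSMD6 (-0.05 and -0.05). Leaving out 1 library at a time, PSMB10 ran from -0.41 to 0.08 (resistance, proficient), PSMB7 from -0.10 to 0.01 (resistant comparison) and PSMB6 from -0.16 to 0.13 (difference), each not past the threshold in the full data. PSMB9 ran from -7.20 to -2.51 (resistance, proficient) and from -8.42 to -3.74 (resistant comparison).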

Other observations

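Genes beside the immunoproteasome loci, taken as the 2 nearest tested protein-coding genes on each side in RefSeq order, were looked at after values were seen. Their values are given without removal of the GC trend, which had a Spearman correlation of 0.464 with resistance in deficient cells. PSMB10 itself was at 1.48 there with that trend removed. Of all genes tested, 28.9% rose with resistance in deficient and 25.9% in proficient cells. A shared change of neighbours was not tested. Around PSMB10, which rose by 2.15 with resistance in deficient cells, PSKH1, a kinase gene, rose by 1.37 ± 0.20 and SLC12A4, a potassium-chloride cotransporter gene, by 1.19 ± 0.19 (edgeR adjusted p = 0.00017 and 0.000329). LCAT, which esterifies cholesterol, and CTRL, a protease gene, changed by 1.19 ± 0.47 and 0.92 ± 0.61 there (edgeR adjusted p = 0.0515 and 0.223). In proficient cells PSKH1 rose by 0.55 ± 0.21 and SLC12A4 changed by 0.26 ± 0.20 (edgeR adjusted p = 0.0453 and 0.285).

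On the other side of PSMB9 from TAP1, HLA-DMB, which helps load peptides on MHC class II, changed by -3.13 ± 0.61 with resistance in deficient and -3.60 ± 0.25 in proficient cells (edgeR adjusted p = 0.0013 and 4.77e-07). HLA-DMA, its partner chain, changed by -2.11 ± 0.41 and -0.76 ± 0.37 (edgeR adjusted p = 0.00127 and 0.11). HLA-DOB, beyond TAP2, changed by -0.94 ± 0.28 and -1.06 ± 0.29 (edgeR adjusted p = 0.0135 and 0.00975). TAP1, TAP2, HLA-DMB, HLA-DMA and HLA-DOB thus had negative changes in both backgrounds, with HLA-DMA in proficient cells not past the threshold. PSMB9 itself was not past it in deficient cells. Of all genes tested, 27% fell in deficient and 27.8% in proficient cells. An effect of the locus was not tested.

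Near PSME1 and PSME2 the changes were of mixed size. IRF9, the second tested gene beyond PSME2, fell in deficient cells by 2.06 (edgeR adjusted p = 2.12e-07), while RNF31 between them, a ubiquitin ligase gene, changed by -0.04 ± 0.15 (edgeR adjusted p = 0.836). DCAF11 and EMC9, which flank PSME1, changed by -0.60 ± 0.08 and -0.44 ± 0.17 (edgeR adjusted p = 0.000121 and 0.0414), and PCK2, a gluconeogenesis gene, by -0.19 ± 0.11 (edgeR adjusted p = 0.153). In proficient cells PCK2 changed by -1.90 ± 0.12 (edgeR adjusted p = 3.04e-07), while DCAF11, EMC9, RNF31 and IRF9 changed by -0.10 ± 0.08, -0.44 ± 0.18, 0.13 ± 0.16 and 0.20 ± 0.11, none past the threshold (edgeR adjusted p = 0.326, 0.0522, 0.539 and 0.156).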
